A study of Mus musculus with 6 samples.

Results

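The mitochondrial ribosomal proteins of cultured mouse neural stem cells were described in RNA-seq libraries from donors of different age. The genes were taken by symbol, as every Mrpl or Mrps symbol followed by a number, with pseudogene symbols to be dropped (0 were found). This gave 77 of the 17006 genes in the files, of which 48 had Mrpl (large subunit) and 29 had Mrps (small subunit) symbols. Primary neural stem cells had been cultured from C57BL/6 mice, out of the subventricular zone, a germinal layer lining the lateral ventricles. The young group had 3 libraries from mice aged 2 months and the aged group had 3 libraries from mice aged 15 to 18 months. No transgene or drug treatment is named for either group, and all 6 libraries share the culture step. Dissociation started from the pooled tissue of 5 mice, and the labels do not say whether each library had its own pool or culture. The p-values therefore measure the spread between these libraries, which may be technical.

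Mitochondria carry their own ribosome, which makes the few proteins encoded in mitochondrial DNA, all of them membrane subunits of the respiratory chain and ATP synthase. The ribosomal RNAs come from mitochondrial DNA, but every ribosomal protein is encoded in the nucleus, made in the cytosol and imported. The mitochondrial ribosome has shed RNA and gained proteins during evolution, so that many of its proteins have no bacterial counterpart. The genes and ribosomal RNAs of mitochondrial DNA were not analysed here.

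Sequence before the start sites is shown for 5 members, to place the letters of known promoter elements beside the values that follow. Mrpl55, Mrpl33 and Mrps17 are among the members with the smallest p-values of the age comparison, and Mrpl52 and Mrps22 show a match to the ETS-type letters discussed next. The sequences are from RefSeq on build GRCm38.p6, are written 5′ to 3′ on the gene's strand and stop before any annotated untranslated region. Capitals mark matches, on either strand, to CCGGAAG (bound by ETS factors), AAGATGGC (YY1), GCATGCGC (NRF1), CCAAT or TATAAA. The positions are chr11:59202236-59202485 (+ strand) for Mrpl55, chr5:31613701-31613938 (+) for Mrpl33, chr5:129715247-129715449 (+) for Mrps17, chr14:54426659-54426908 (+) for Mrpl52 and chr9:98601680-98601929 (- strand) for Mrps22.
Mrpl55: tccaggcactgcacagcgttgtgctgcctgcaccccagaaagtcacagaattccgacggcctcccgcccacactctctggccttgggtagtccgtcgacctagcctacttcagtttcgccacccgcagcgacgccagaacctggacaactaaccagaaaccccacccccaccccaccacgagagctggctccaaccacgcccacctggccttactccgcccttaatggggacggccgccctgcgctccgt
Mrpl33: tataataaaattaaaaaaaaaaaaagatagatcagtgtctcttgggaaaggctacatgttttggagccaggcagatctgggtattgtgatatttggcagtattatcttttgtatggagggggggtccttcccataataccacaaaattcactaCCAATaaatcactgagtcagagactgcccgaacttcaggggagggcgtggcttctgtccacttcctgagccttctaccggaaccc
Mrps17: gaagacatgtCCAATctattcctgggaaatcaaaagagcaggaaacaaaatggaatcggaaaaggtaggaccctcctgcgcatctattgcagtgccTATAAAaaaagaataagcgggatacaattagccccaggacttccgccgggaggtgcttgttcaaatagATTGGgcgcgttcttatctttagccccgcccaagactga
Mrpl52: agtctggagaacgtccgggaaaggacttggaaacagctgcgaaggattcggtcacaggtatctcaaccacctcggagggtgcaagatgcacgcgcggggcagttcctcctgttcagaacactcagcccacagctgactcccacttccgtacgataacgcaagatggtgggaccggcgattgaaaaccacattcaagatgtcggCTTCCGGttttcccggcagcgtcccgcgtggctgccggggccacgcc
Mrps22: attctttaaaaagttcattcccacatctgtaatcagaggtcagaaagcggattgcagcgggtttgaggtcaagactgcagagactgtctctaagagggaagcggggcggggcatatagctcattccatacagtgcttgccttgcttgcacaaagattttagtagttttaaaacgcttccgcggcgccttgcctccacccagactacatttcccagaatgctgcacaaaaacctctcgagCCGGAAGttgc

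Mrpl55 had no match before its start. Mrpl33 had CCAAT letters in the printed stretch, and in the bases left out next to its start it had an NRF1-type match and an ETS-type match, beginning 12 and 3 bases before the start. Mrps17 had CCAAT letters in both orientations with a TATAAA match between them. Mrpl52 and Mrps22 each had an ETS-type match close to the start. RefSeq windows of 300 bases (250 before and 50 after the start) were at hand for 68 of the 77 members, in 74 windows. The other 9 members are Mrpl4, Mrpl13, Mrpl15, Mrpl19, Mrpl38, Mrpl54, Mrps28, Mrps34 and Mrps35. CCGGAAG stood in 25 of the 74 member windows (33.8%), against 17.9% of the 12103 windows of tested genes and 8.86% of all 32851 windows. AAGATGGC stood in 12 member windows (16.2%), against 4.57% of the windows of tested genes. GCATGCGC, a form shortened after a longer one had been counted, stood in 8 (10.8%, against 5.40%), with 7 of these in large subunit genes. CCAAT (40.5% against 38.2%) and TATAAA (6.76% against 6.68%) stood in nearly equal shares of member and tested-gene windows. The large subunit genes had CCGGAAG in 14 of 47 windows and the small subunit genes in 11 of 27. Median GC content was 58.5% in member windows and 61.3% in those of tested genes. None of these motifs contains another, and a match is a run of letters, not a bound site.

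The 6 libraries held an estimated 5236000 to 5395000 counted reads each, from the steps in which low values came. A member had on average between 58.8 and 1163 estimated reads per library (median 257), so read sampling alone gives a median coefficient of variation of about 6.24%. The median coefficient of variation between libraries of a group was 7.12%. All 10 neural stem cell markers on the list lay over a mean of 1 FPKM, among them Sox2 and Nes. Of the lists of other cell types, 0 of 4 microglial, 1 of 4 endothelial and 1 of 5 oligodendrocyte markers did so. So did 1 of 5 neuroblast and neuron, 1 of 6 fibroblast and pericyte and 2 of 4 ependyma and choroid plexus markers. The listed markers Aif1, Csf1r, Cdh5 and Ttr had no values and are left out of these counts. The summed fibroblast and pericyte markers were 0.45 to 0.64 FPKM in the young and 2.68 to 3.72 FPKM in the aged libraries. Most of this rise was Col1a1 (means 0.42 and 2.46 FPKM), with Col1a2 and Col3a1 also higher. Dcn and Rgs5 went from means of 0.033 and 0.067 FPKM to 0, and Pdgfrb stayed near 0 (0 and 0.01 FPKM). The neuroblast and neuron markers summed to 3.83 to 4.58 and 5.02 to 6.98 FPKM, mostly as Snap25 (means 2.97 and 4.56 FPKM). Rbfox3 did not rise (means 0.68 and 0.66 FPKM). The summed oligodendrocyte markers were lower in the aged libraries, at 2.85 to 3.19 FPKM against 3.52 to 3.84 FPKM in the young. The summed ranges of the other lists overlapped between the groups. The part of these markers in the results was not tested. In bulk RNA, fewer cells of a type and less RNA per cell cannot be told apart.

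Among the aged libraries, aged 2 stood apart for these genes. It was the lowest of the 3 aged libraries in 27 of 48 large subunit genes (56.3%) and in 16 of 29 small subunit genes (55.2%), against 33.6% of all tested genes. Its median deviation from a gene's mean over the 6 libraries was -0.04 (log2) for the large and -0.037 for the small subunit, whereas aged 3 lay at 0.078 and 0.035. The 82 tested cytosolic ribosomal protein genes had aged 2 as the lowest aged library in 75 (91.5%), and the 77 tested nuclear genes of the respiratory chain and ATP synthase in 60 (77.9%). Members are short transcripts, with a median length of 1226 bases against 2946 in tested genes. Aged 2 was the lowest aged library in 41.2% of the 3774 other tested genes of member-like length and in 27.1% of the 7229 longer ones. In the 782 genes of member-like length that also lay in the members' middle range of levels, the share was 44.2%. The part of transcript length and level in this difference was not tested.

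**Figure D1:**
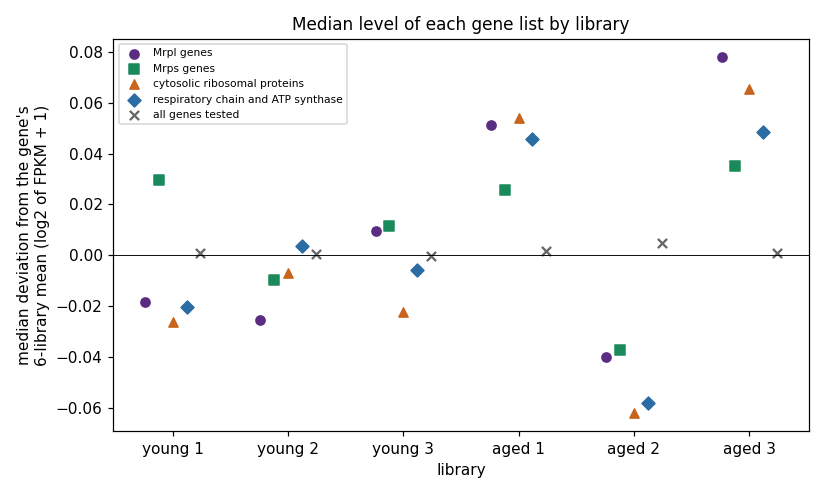
Median deviation of each gene list from each gene's 6-library mean (y axis, log2 of FPKM + 1) in each library (x axis). Circles are Mrpl genes, squares Mrps genes, triangles cytosolic ribosomal proteins, diamonds respiratory chain and ATP synthase genes and crosses all tested genes. In aged 2 all 4 lists lie below 0 (-0.037 to -0.062), while all tested genes lie at 0.0046.

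Every member was expressed above the low-value filter, a mean of 1 FPKM. FPKM are read counts scaled to transcript length and to the reads of the library, so a comparison between genes rests on the lengths used. The lengths behind the deposited values are not given in the sources used here. GENCODE lengths differ widely between members, such as 405 bases for Mrps21 and 7300 for Mrpl17. Ranks and spans between members are therefore approximate. The large subunit genes had a median of 43.2 FPKM and spanned 6.93 to 136.4 FPKM, a 19.7-fold range, and 33 of 48 lay within 2-fold of the median. The small subunit genes had a nearly equal median, 43.5 FPKM, with a narrower span from 12.8 to 111.7 FPKM (8.75-fold), and 23 of 29 lay within 2-fold of it. The standard deviation of log2 level was 1.03 over the large and 0.69 over the small subunit genes. Cytosolic ribosomal protein genes had a median of 729 FPKM and respiratory chain and ATP synthase genes one of 171 FPKM. The 48 members with a bacterial counterpart had a median of 44.3 FPKM, and the 28 without one had a median of 29.8 FPKM.

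Mrpl12, a protein of the flexible stalk that also binds the mitochondrial RNA polymerase, had the highest level. Its values were 137.52, 139.03 and 139.98 FPKM in the young libraries and 135.52, 119.81 and 146.74 FPKM in the aged. Mrpl52, a large subunit protein without a bacterial counterpart, followed with 127.32, 118.07 and 119.33 FPKM in the young and 128.1, 111.87 and 133.19 FPKM in the aged libraries. Mrpl42 was next at a mean of 108.8 FPKM (99.42 to 114.75 over the 6 libraries). The ranges over the libraries overlapped between Mrpl12 and Mrpl52 and between Mrpl52 and Mrpl42, but within each library the order held, in 6 of 6 libraries for both pairs. In the small subunit, Mrps21 (mean 111.7 FPKM, 100.08 to 123.96 over the libraries) and Mrps6 (mean 94.2 FPKM, 90.21 to 100.96) led, and Mrps21 was the higher in 6 of 6 libraries although their ranges overlapped by less than 1 FPKM. At the low end stood Mrpl1, of the mobile stalk that in bacteria lies at the tRNA exit, with 6.08, 7.94 and 7.3 FPKM in the young and 7.77, 7.45 and 5.03 FPKM in the aged libraries. Mrpl19 had 7.83, 8.04 and 8.88 FPKM in the young and 7.41, 8.18 and 6.71 FPKM in the aged libraries and lay above Mrpl1 in 5 of the 6. The lowest small subunit genes were Mrps25 (mean 12.8 FPKM) and Mrps31, both without a bacterial counterpart.

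**Figure D2:**
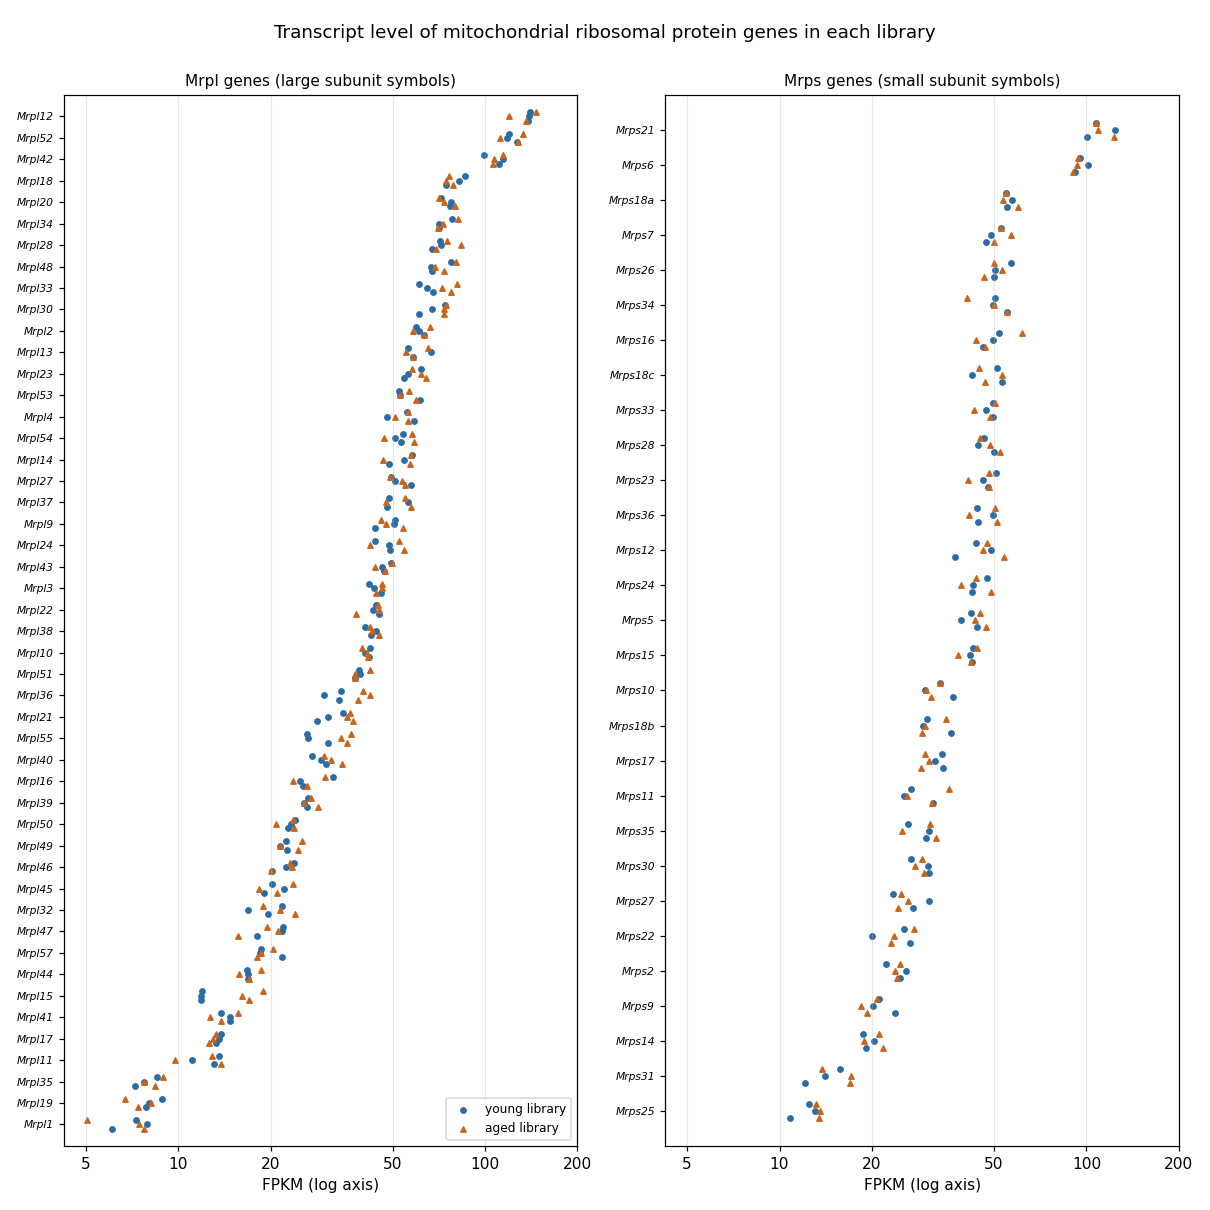
FPKM of every member (x axis, log scale) in each library, with Mrpl genes on the left and Mrps genes on the right, ordered by mean. Circles are young and triangles aged libraries. Levels run from Mrpl1 (mean 6.93 FPKM) to Mrpl12 (mean 136.4 FPKM), and the libraries of a gene lie close together beside the spread between genes.

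Few transcripts of the mitochondrial ribosome differed with donor age beyond the spread between libraries. In limma, with p-values adjusted over all 11912 tested genes, 1 of the 48 large subunit genes, Mrpl15, was higher in the aged libraries at an adjusted p under 0.05, and 0 were lower. Of the 29 small subunit genes 0 were higher and 0 lower. Over all tested genes 0.327% were called higher and 0.395% lower (0.722% in all), and from 1 call among 77 genes nothing particular to them can be read. At an unadjusted p under 0.05, limma gave 5 higher and 0 lower large subunit genes and 0 higher and 1 lower small subunit gene, against 6.3% and 5.55% of all tested genes. The 3 young and 3 aged values did not overlap in 8 of the 77 members (10.4%), against 17.6% of tested genes. These were 5 higher and 1 lower in the large subunit, and 1 higher and 1 lower in the small subunit, against 8.98% higher and 8.58% lower over all tested genes.

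The median log2 change, aged minus young on the scale of log2(FPKM + 1), was 0.021 over the large subunit genes and 0.00013 over the small. It was 0.0027 over all tested genes. Of the large subunit genes 31 had a positive and 17 a negative change, and of the small subunit genes 15 and 14. Over all tested genes 51.0% of changes were positive. The large subunit median turned negative without aged 3 (-0.0049) and was 0.052 without aged 2. The small subunit median, near 0, was -0.023 without aged 1 and 0.036 without aged 2, and took either sign under other scalings (-0.013 after rescaling to TPM, 0.0085 after median centring). Summed over the subunit, the large subunit genes had 2126.64, 2130.57 and 2153.11 FPKM in the young and 2229.9, 2106.89 and 2273.97 FPKM in the aged libraries. The small subunit genes had 1199.45, 1204.22 and 1203.34 FPKM in the young and 1233.98, 1164.16 and 1218.84 FPKM in the aged libraries. In both subunits the aged libraries lay on both sides of the young ones. Changes of moderate size are limited by the intervals: the 95% confidence interval lay within 1.2-fold either way in 33 large and 19 small subunit genes, 52 of the 77, against 49.8% of tested genes. It lay within 1.5-fold in 76 members, all but Mrpl15, against 11047 of the 11912 tested genes. Intervals within 1.2-fold were found in 96.3% of cytosolic ribosomal protein genes and 90.9% of respiratory chain and ATP synthase genes. The share was 38.5% in genes of mitochondrial translation, assembly and transcription. Median levels were 729, 171 and 9.61 FPKM in these lists, 43.5 FPKM in the members and 12.5 FPKM in all tested genes. The part of level in these shares was not tested.

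**Figure D3:**
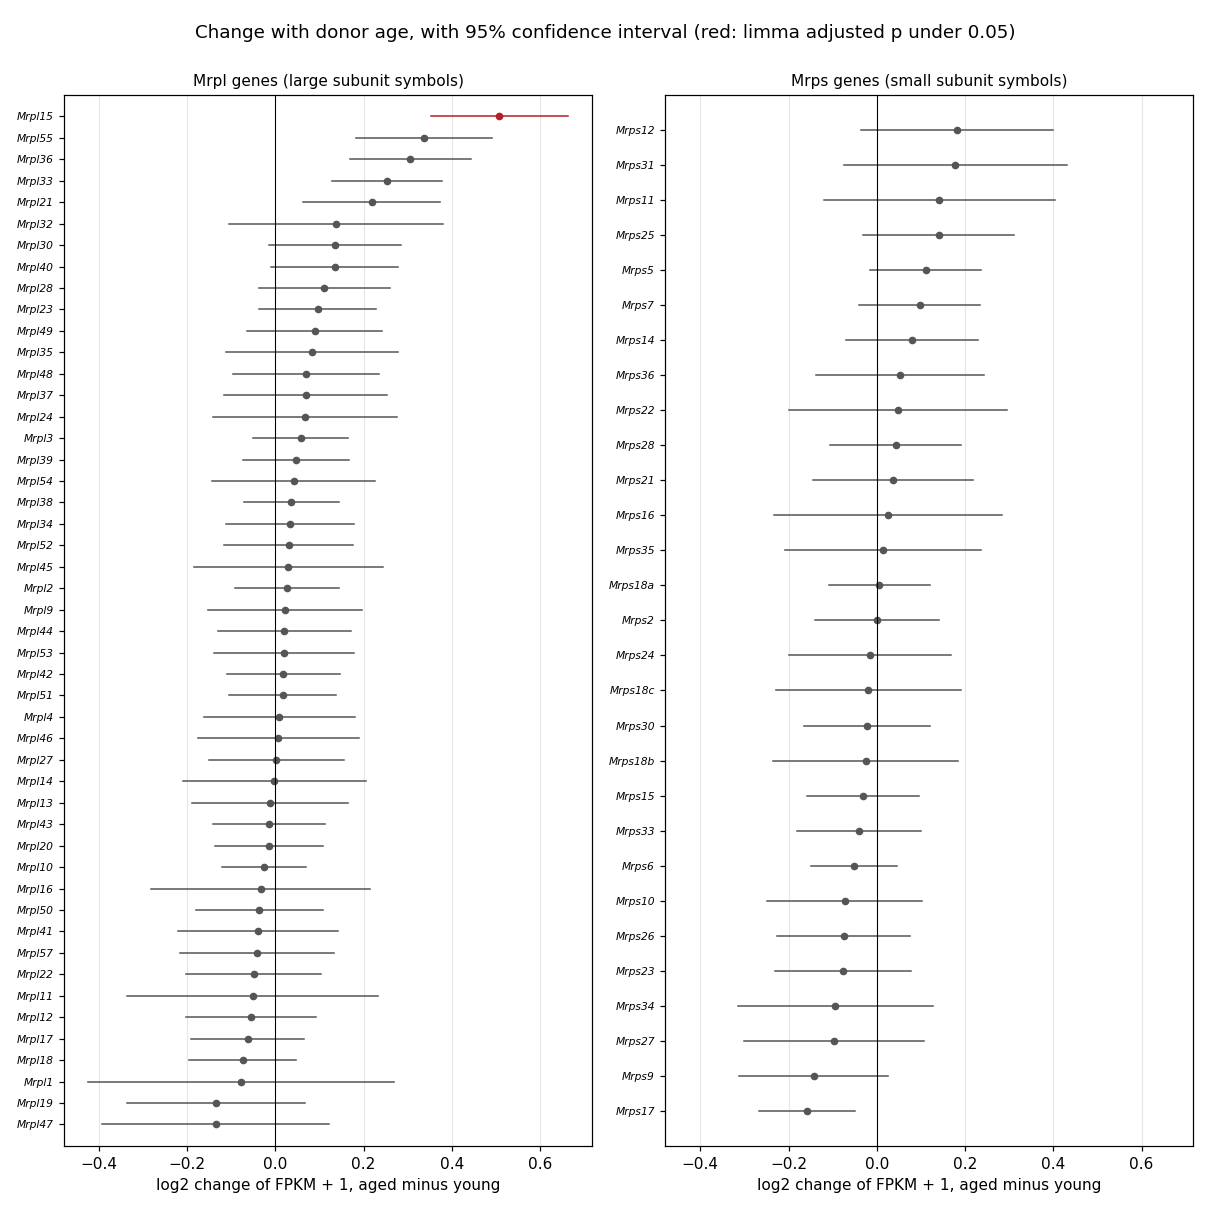
Log2 change of FPKM + 1, aged minus young (x axis), with its 95% confidence interval from limma for every member, Mrpl genes on the left and Mrps genes on the right. Mrpl15, in red, is the member with a limma adjusted p under 0.05. The interval of 1 small subunit gene, Mrps17, lies wholly below 0.

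**Figure D4:**
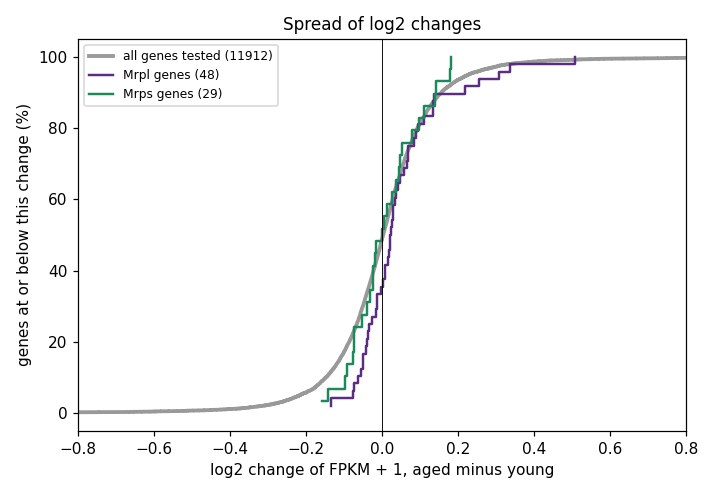
Cumulative share of genes (y axis, percent) at or below each log2 change, aged minus young (x axis), for the 11912 tested genes (grey), the 48 Mrpl genes (purple) and the 29 Mrps genes (green). Changes beyond the ends of the axis are not drawn. The changes of both subunits lie from -0.16 to 0.51. A range widens with the number of genes, so it is not compared with that of all genes.

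Mrpl15, the large subunit protein related to bacterial L15, was the member that rose. The gene lies on GRCm38.p6 at chr1:4773198-4785750. It had 11.83, 11.88 and 11.93 FPKM in the young and 16.96, 16.16 and 18.93 FPKM in the aged libraries. All aged values lay above all young ones, and the young values were closer together than their counting error of about 6.95% (at roughly 207 estimated reads per library). The means were 11.9 ± 0.05 and 17.4 ± 1.43 FPKM (SD, n = 3 each), 1.46-fold higher in the aged. On the log2 scale Mrpl15 differed by 0.51 ± 0.07 (SE; limma adjusted p = 0.0131). The call was lost without the variance trend (limma adjusted p = 0.0763). It was also lost when any 1 of the 3 young libraries or aged 1 was left out (adjusted p from 0.0556 to 0.0637), with log2 changes from 0.505 to 0.522 in these fits. Mrpl15 has 3 RefSeq transcripts, and the files give 1 value per gene.

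Another 4 large subunit genes had higher aged values at an unadjusted limma p under 0.05, and none passed the adjusted threshold. Mrpl36, a small zinc-binding protein at chr13:73328503-73332178, had 33.38, 29.87 and 34.02 FPKM in the young and 38.66, 42.09 and 40.1 FPKM in the aged libraries. Every aged value exceeded every young one (means 32.4 ± 2.23 and 40.3 ± 1.72, SD; log2 change 0.31 ± 0.06, SE; limma adjusted p = 0.0685). Its exons overlap Ndufs6, a complex I gene on the opposite strand with means of 131.0 and 136.2 FPKM and a log2 change of 0.06. Since the strand setting of the counting is not given in the sources used here, reads in the stretch these genes share cannot be told apart.

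Mrpl55, a large subunit protein at chr11:59202486-59206138, had 30.85, 26.47 and 26.29 FPKM in the young and 35.45, 33.97 and 36.71 FPKM in the aged libraries. Young 1 was the highest of the young libraries, and the groups did not overlap. On the log2 scale it differed by 0.34 ± 0.07 (SE; limma adjusted p = 0.0742), and without young 1 the adjusted p was 0.0362. Mrpl33, the small protein related to bacterial L33 at chr5:31613951-31622644, had 67.64, 64.73 and 60.89 FPKM in the young and 77.26, 72.48 and 81.29 FPKM in the aged libraries. Its groups did not overlap either (means 64.4 ± 3.39 and 77.0 ± 4.41 FPKM, SD; log2 change 0.25 ± 0.05, SE; limma adjusted p = 0.0964). Exons of Mrpl33 overlap Gm43809 on the same strand, so the Mrpl33 value may hold reads of that gene. Mrpl21, taken up after its values were seen, had 28.32, 30.71 and 34.36 FPKM in the young and 37.16, 35.51 and 36.19 FPKM in the aged libraries, with a log2 change of 0.22 and a limma adjusted p of 0.245. Its exons overlap Ighmbp2, which lies on the opposite strand at means of 2.85 and 3.10 FPKM.

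**Figure D5:**
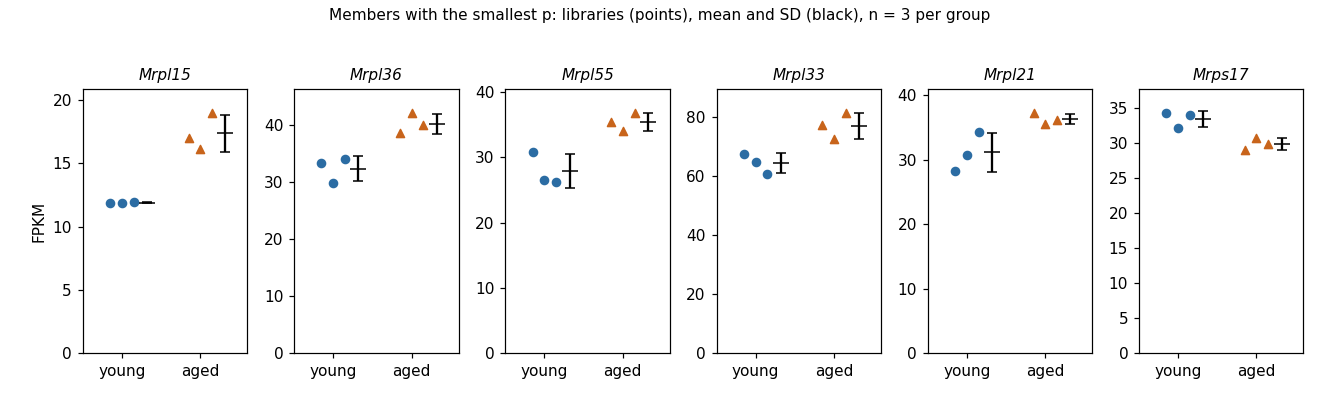
FPKM (y axis, from 0) in the young (circles) and aged (triangles) libraries for the 6 members with the smallest limma p, with mean and SD in black (n = 3 per group). In Mrpl15, Mrpl36, Mrpl55, Mrpl33 and Mrpl21 all aged values lie above all young values, and in Mrps17 all lie below.

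The large subunit members with the largest negative differences were Mrpl47, Mrpl19, Mrpl1 and Mrpl18, and their groups overlapped. Mrpl47, related to bacterial L29 and placed at the exit of the nascent chain, had 18.08, 21.78 and 22.04 FPKM in the young and 15.7, 21.16 and 19.41 FPKM in the aged libraries (log2 change -0.14, limma adjusted p = 0.718). Exons of Mrpl47 overlap Ndufb5, a complex I gene on the opposite strand, which had means of 103.5 and 89.3 FPKM in the young and aged libraries with no overlap of the groups (log2 change -0.21, limma adjusted p = 0.0629). Reads in the stretch that Mrpl47 and Ndufb5 share cannot be told apart either. Mrpl19 had a log2 change of -0.14 and Mrpl1 one of -0.08. Mrpl18, which binds the structural RNA of the central protuberance, had 74.6, 82.04 and 85.95 FPKM in the young and 78.57, 74.76 and 76.55 FPKM in the aged libraries (log2 change -0.07, limma adjusted p = 0.664). Exons of Mrpl18 overlap Tcp1, which lies on the opposite strand at means of 173.3 and 174.9 FPKM. The 1 large subunit gene whose aged values all lay below the young ones was Mrpl17, named for that after its values were seen. It had 13.29, 13.62 and 13.82 FPKM in the young and 12.65, 12.96 and 13.26 FPKM in the aged libraries (log2 change -0.06, limma adjusted p = 0.738).

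In the named functional regions of the large subunit limma called 0 genes, against 0.722% of all tested genes. With so few genes in these regions, a count of 0 shows nothing particular to them. The 3 genes of the stalk and its base, Mrpl10, Mrpl11 and Mrpl12, recruit translation factors and all had negative changes, with a median of -0.051. Mrpl10 had 41.94, 40.69 and 42.1 FPKM in the young and 41.54, 41.29 and 39.59 FPKM in the aged libraries, with a 95% interval of -0.12 to 0.07 for the log2 change. Mrpl11 had 13.1, 11.07 and 13.56 FPKM in the young and 13.83, 9.79 and 12.92 FPKM in the aged libraries. The 6 genes of the polypeptide exit had a median log2 change of -0.01. Mrpl45, which anchors the ribosome to the inner membrane, had 19.01, 22.09 and 20.27 FPKM in the young and 20.96, 18.28 and 23.67 FPKM in the aged libraries. For the central protuberance the list held 5 members without a bacterial counterpart, Mrpl38, Mrpl40, Mrpl46, Mrpl48 and, despite its symbol, Mrps30. They had a median of 0.036 with 4 positive changes. By origin, the members with a bacterial counterpart had a median of 0.0071 and those without one a median of 0.019.

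In the small subunit Mrps17 had the smallest p. It is related to bacterial S17, which binds the small ribosomal RNA, and lies at chr5:129715450-129718712. It had 34.16, 32.1 and 33.88 FPKM in the young and 28.89, 30.7 and 29.83 FPKM in the aged libraries. All aged values were below all young ones (means 33.4 ± 1.12 and 29.8 ± 0.905 FPKM, SD), with a log2 change of -0.16 ± 0.05 (SE) that missed the threshold at a limma adjusted p of 0.232. Mrps9 (log2 change -0.14), Mrps27 (-0.10) and Mrps34 (-0.09) followed, with overlapping groups and limma adjusted p of 0.506, 0.755 and 0.779. Mrps34, needed for the stability of the small subunit RNA, had 55.06, 49.57 and 50.33 FPKM in the young and 54.96, 50.02 and 40.94 FPKM in the aged libraries, so that aged 3 alone was low. Exons of Mrps34 overlap Nme3 on the same strand (means 18.5 and 16.1 FPKM) and Mapk8ip3 on the opposite strand (38.5 and 40.9 FPKM).

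The largest positive differences of the small subunit were those of Mrps12, Mrps31, Mrps11 and Mrps25. Mrps12, a protein of the decoding site, had 37.36, 48.9 and 43.76 FPKM in the young and 53.7, 46.12 and 47.49 FPKM in the aged libraries (log2 change 0.18, limma adjusted p = 0.516). Mrps31 had 12.07, 14.08 and 15.79 FPKM in the young and 16.97, 17.1 and 13.72 FPKM in the aged libraries (0.18, limma adjusted p = 0.607). Their groups overlapped. Mrps25 had 10.84, 13.04 and 12.45 FPKM in the young and 13.49, 13.56 and 13.18 FPKM in the aged libraries, and its groups did not overlap (0.14, limma adjusted p = 0.525). Exons of Mrps25 overlap Nr2c2, which lies on the opposite strand at means of 10.73 and 9.99 FPKM. Mrps11 had 31.52, 25.42 and 26.73 FPKM in the young and 31.28, 26.02 and 35.62 FPKM in the aged libraries. Its GENCODE exons overlap those of Mrpl46 on the opposite strand, but the RefSeq spans of Mrps11 and Mrpl46 do not overlap.

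Some Mrps symbols name proteins outside the small subunit. Mrps18a and Mrps30 sit in the large subunit of the assembled ribosome, and Mrps36 is a subunit of the 2-oxoglutarate dehydrogenase complex. Placed by structure, the large subunit had 50 genes and a median log2 change of 0.020, and the small subunit had 26 genes and a median of -0.0077, with the same calls as by symbol. The Mrps18 paralogs occupy different sites and were all expressed. Mrps18a had 55, 57.29 and 54.62 FPKM in the young and 59.72, 53.48 and 54.54 FPKM in the aged libraries. Mrps18b had 36.14, 29.35 and 30.29 against 29.14, 29.89 and 34.95 FPKM, and Mrps18c had 53.06, 42.38 and 51.28 against 46.72, 53.09 and 44.6 FPKM, young before aged. The groups of all 3 paralogs overlapped. Mrps30 had 30.69, 30.53 and 26.79 FPKM in the young and 29.58, 27.66 and 29.18 FPKM in the aged libraries. Mrps36 had 44.32, 49.52 and 43.86 FPKM in the young and 51.2, 41.58 and 50.51 FPKM in the aged libraries.

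Mitochondrial ribosomal proteins with other symbols (Dap3, Ptcd3, Chchd1, Aurkaip1, Gadd45gip1 and Ict1) had mean levels of 22.7 to 80.9 FPKM, within the span of the members. Of these 6, limma called 0 (0.722% over all tested genes), and 4 had positive and 2 negative changes. Aurkaip1 had 38.83, 43.34 and 42.23 FPKM in the young and 49.49, 46.71 and 43.31 FPKM in the aged libraries, with groups that overlapped slightly (log2 change 0.16, limma adjusted p = 0.346).

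The machinery that builds and serves the mitochondrial ribosome showed no called gene. Of 65 tested genes of mitochondrial translation, assembly and transcription, 37 had positive and 28 negative changes, with a median log2 change of 0.013. At an unadjusted p under 0.05, limma gave 4 higher and 2 lower. Over all tested genes the shares were 0.722% called, and 6.3% higher and 5.55% lower unadjusted, so these counts are near the background. Their median level, 9.61 FPKM, was below that of the ribosomal proteins. Among the 26 assembly and RNA modification genes 18 changes were positive. Ftsj2, a methyltransferase of the large ribosomal RNA, had 8.16, 9.03 and 9.18 FPKM in the young and 11.06, 10.23 and 9.58 FPKM in the aged libraries (log2 change 0.21, limma adjusted p = 0.345). Rpusd3, a pseudouridine synthase family member, had 4.51, 4.79 and 5.24 FPKM in the young and 5.64, 5.84 and 5.76 FPKM in the aged libraries (0.21, limma adjusted p = 0.38). Of the same list, Eral1, which chaperones the small subunit RNA, had a log2 change of 0.18 and the helicase Ddx28 one of -0.18.

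Of the 17 mitochondrial aminoacyl-tRNA synthetases 9 changes were positive and 8 negative. Iars2, which charges the mitochondrial isoleucine tRNA, had 28.35, 30.14 and 30.37 FPKM in the young and 25.92, 27.38 and 25.78 FPKM in the aged libraries, with no overlap (log2 change -0.16, limma adjusted p = 0.245). Rars2, for arginine, had means of 16.4 ± 1.88 and 19.2 ± 1.25 FPKM (SD, n = 3 each; log2 change 0.22, limma adjusted p = 0.357). The 15 translation factors had 7 positive and 8 negative changes. In this list Guf1, an elongation factor 4 homolog, had a log2 change of 0.18 (limma adjusted p = 0.414) and Taco1, an activator of Cox1 translation, one of -0.16 (limma adjusted p = 0.421). The 7 transcription genes had 3 positive and 4 negative changes.

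The ribosome of the cytosol and the complexes that the mitochondrial ribosome serves gave the same count of calls, 0 of 82 and 0 of 77 tested genes. Over all tested genes 0.722% were called, so these counts are near the background. Cytosolic ribosomal protein genes had 70 positive and 12 negative changes with a median of 0.037, and respiratory chain and ATP synthase genes had 54 and 23 with a median of 0.021. These medians are of the size by which single libraries moved, as the values of aged 2 above show. No difference between these lists and the members was tested.

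The members were spread over 17 chromosomes, with 10 on chromosome 11, 8 on chromosome 17 and 7 on chromosome 6. A start site of a gene on the opposite strand lay within 1000 bases, pointing away, for 18 of 77 members (23.4%), against 1199 of 11028 tested genes (10.9%). Mrpl46 and Mrps11, which overlap in GENCODE but not in RefSeq, are not among the 18. Examples are Mrpl49 with Fau (59 bases), which encodes a ubiquitin-like protein fused to ribosomal protein S30, and Mrpl32 with Psma2 (75 bases), a proteasome subunit. Mrps12 and Sars2, the mitochondrial seryl-tRNA synthetase, start 172 bases apart. Sars2 had means of 14.4 and 14.3 FPKM in the young and aged libraries, with a log2 change of -0.01. Exons of 27 members overlapped a gene on the opposite strand. Those of 5 (Mrpl33, Mrpl53, Mrps6, Mrps24 and Mrps34) overlapped one on the same strand, and 4 members (Mrpl23, Mrpl27, Mrpl48 and Mrps36) have named pseudogenes. The values of all these members may hold reads of another gene.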

How the data were processed

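Per the labels' protocols, 1 ug of total RNA went through rRNA depletion and an MGI library kit. The authors deposited FPKM per gene with 2 decimals, 1 table per library, per the file headers. The submitters' processing notes name TopHat, Cuffdiff and build mm10, without version or order; annotation and strand setting are not given in the sources used here. FPKM are not counts, so values were tested as log2(FPKM + 1) with limma 3.58.1 in R 4.3.3 (trend, all 6 libraries, no covariates) over the 11912 genes whose mean reached 1 FPKM. Tests were two-sided, p-values were adjusted by Benjamini-Hochberg, and calls needed an adjusted p under 0.05. Changes on this scale are understated in low genes. The script was tested on simulated data.

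Reads were estimated from steps in low values and GENCODE transcript lengths and are approximate: 44.2% to 51.5% of values of 4 to 10 estimated reads lay within 0.15 of a whole read, against 30% by chance. Coordinates, counted from 1, and promoters are from RefSeq GRCm38.p6, which held all 77 members. Exon overlaps are from GENCODE.

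The members and gene lists were chosen with earlier results of these data known. Named were the called member, the 4 largest changes each way and the 3 highest and 2 lowest levels per subunit, fixed landmarks, up to 4 genes of smallest p per pathway list and ribosomal proteins with other symbols. Alternatives were other pseudocounts, filters, scalings, variance settings and memberships, a replicate block and leaving out each library.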

Additional observations from a re-analysis of the deposited data

How the results depend on the processing

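With 3 libraries a group, the median member had about 6.24% counting error and 7.12% spread between libraries. The limma confidence intervals of 52 of the 77 members still lay within 1.2-fold either way. The adjusted threshold was harder to reach. Mrpl33 and Mrpl36, 1.2-fold and 1.24-fold higher in the aged libraries, were not called (limma adjusted p = 0.0964 and 0.0685). The large subunit count of 1 called gene became 0 in limma without a trend and 0 with the replicate block, and ranged from 0 to 1 when a library was left out: 0 without young 2, young 3 or aged 1. Without young 1 the called gene was Mrpl55 (limma adjusted p = 0.0362) and not Mrpl15. The large subunit median of 0.021 (log2) ranged from -0.0049 to 0.052 with a library left out and from 0.0080 to 0.030 under the other settings. The small subunit median ranged from -0.023 to 0.036 and from -0.013 to 0.0085. Counts of the small subunit and of the translation and assembly genes were 0 in every setting run.

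Over all genes, limma called 86, against 22 with the replicate block, 11 without a trend, 59 with no low-value filter and 39 to 70 with a library left out. It called 109 with robust estimation, 108 with a filter at 5 FPKM, 99 after rescaling to TPM, 95 with a pseudocount of 0.1, 94 after quantile normalization, 90 after median centring and 84 with a pseudocount of 5. The replicate numbers were not taken to pair libraries, since deviations of same-numbered libraries correlated at 0.00795, -0.0719 and 0.108. With the block the limma adjusted p of Mrpl15 was 0.0668, and no sign of a called value reversed in any setting run.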
